A study of Mus musculus with 13 samples.

Results

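Of 57865 intervals of at least 50 bp in the Omni-ATAC list from 50000 cells, 16571 (28.6%, 95% Wilson interval 28.3% to 29.0%) overlapped no interval of the other 7 ATAC lists by even 1 bp. These 16571 are called 50K-only sites here. The other 41294 intervals of that list overlapped at least 1 other list and are called shared sites. The 8 lists together hold 135718 intervals of at least 50 bp and 279669 of any width. The sites were chosen by their presence in 1 peak list and absence from 7, so that contrast is a description and carries no test.

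All libraries came from E14 cells, a mouse embryonic stem cell line of 129/Ola background grown in serum with leukemia inhibitory factor. The labels name no added allele or drug in any group. Omni-ATAC, an established protocol for mapping open chromatin with the transposase Tn5, was run once each with 5000, 10000 and 50000 cells. The low-input protocol, which makes an ATAC and an mRNA library from the same lysed cells, was run with 10000 and 20000 cells in experiment 1. In experiment 2, on another day, it was run with 5000, 10000 and 20000 cells. The 50000-cell group is therefore 1 library with no replicate, and against the 2 smaller Omni-ATAC libraries its cell number and read depth cannot be told apart. Against the low-input libraries the protocol differs as well. No mRNA was measured in the Omni-ATAC cells, so every expression value here comes from the 5 low-input mRNA libraries.

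Tn5 inserts sequencing adapters into DNA that is not wrapped in nucleosomes, so clusters of insertions mark promoters, enhancers and insulators. Promoters of broadly expressed genes are mostly rich in CpG dinucleotides and are among the strongest signals in an ATAC library. Distal enhancers give weaker signals on the whole and are more specific to a cell type.

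The 5 mRNA libraries held 13727122 to 20426252 counts over 24470 genes, and 3 counts, the limit that a count of 0 allows, equal 0.147 to 0.219 counts per 1000000 (CPM). Embryonic stem cell markers were expressed at 1 CPM or more in 10 of 10 cases. Their summed level ran from 3526 to 3681 CPM. Of 8 fibroblast markers 1 reached 1 CPM, Thy1, with a summed level of 9.01 to 35.5 CPM. Of 6 endothelial and blood markers 2 did, with a sum of 7.07 to 9.49 CPM. The ATAC lists give positions only, so no height, score or depth stands behind a site.

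The 5 promoters printed here are chosen examples of 50K-only sites near genes' starts, and 15.2% of the sites lay within 1000 bp of one. They come from RefSeq (GRCm38.p6, the assembly also called mm10), and each is the 250 bases before a gene's start, 5′ to 3′ on the gene's strand. Capitals mark the bases inside the 50K-only site, and lower case the bases outside it. Macir is shown because it holds the widest 50K-only site, Nr0b1 and Fgf4 because they are strongly expressed pluripotency genes, and Gsc and Ddx4 because they are an early lineage and a germline gene.
Macir: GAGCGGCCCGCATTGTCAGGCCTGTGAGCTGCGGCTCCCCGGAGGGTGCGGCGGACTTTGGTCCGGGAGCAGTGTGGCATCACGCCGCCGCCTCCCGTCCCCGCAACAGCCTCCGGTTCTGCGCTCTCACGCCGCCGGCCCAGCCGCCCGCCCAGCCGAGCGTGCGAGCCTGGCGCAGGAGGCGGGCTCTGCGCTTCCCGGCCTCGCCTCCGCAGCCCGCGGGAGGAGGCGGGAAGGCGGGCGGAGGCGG
Nr0b1: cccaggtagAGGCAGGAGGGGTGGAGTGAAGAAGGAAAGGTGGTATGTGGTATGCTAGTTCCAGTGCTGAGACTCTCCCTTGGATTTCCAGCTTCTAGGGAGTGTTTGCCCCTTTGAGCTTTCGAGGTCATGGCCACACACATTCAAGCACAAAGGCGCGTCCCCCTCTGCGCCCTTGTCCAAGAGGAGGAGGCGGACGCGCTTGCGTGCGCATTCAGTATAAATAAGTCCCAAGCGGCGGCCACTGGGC
Fgf4: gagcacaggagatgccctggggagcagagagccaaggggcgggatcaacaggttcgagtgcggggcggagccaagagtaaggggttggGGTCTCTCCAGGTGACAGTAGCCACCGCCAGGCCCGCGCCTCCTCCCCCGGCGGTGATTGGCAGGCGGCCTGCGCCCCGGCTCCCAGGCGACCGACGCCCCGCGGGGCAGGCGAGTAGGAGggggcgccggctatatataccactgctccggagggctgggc
Gsc: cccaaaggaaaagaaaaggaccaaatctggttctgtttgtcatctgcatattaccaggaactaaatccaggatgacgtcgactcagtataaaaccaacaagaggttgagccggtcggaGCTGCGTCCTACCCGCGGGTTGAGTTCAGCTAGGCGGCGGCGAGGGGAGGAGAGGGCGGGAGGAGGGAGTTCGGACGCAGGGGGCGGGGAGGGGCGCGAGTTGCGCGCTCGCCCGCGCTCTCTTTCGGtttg
Ddx4: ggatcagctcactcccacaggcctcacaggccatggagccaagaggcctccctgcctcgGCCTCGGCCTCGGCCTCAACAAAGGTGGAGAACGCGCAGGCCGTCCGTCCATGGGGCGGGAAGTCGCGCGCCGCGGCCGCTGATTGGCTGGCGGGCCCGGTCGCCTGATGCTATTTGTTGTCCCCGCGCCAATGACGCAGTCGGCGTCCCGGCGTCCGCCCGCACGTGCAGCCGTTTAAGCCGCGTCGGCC
The windows lie at chr1:97662019-97662268 on the minus strand (Macir), chrX:86191525-86191774 on the plus strand (Nr0b1) and chr7:144861136-144861385 on the plus strand (Fgf4). Those of Gsc and Ddx4 lie at chr12:104473237-104473486 and chr13:112652311-112652560, both on the minus strand. In Macir all 250 bases were inside the site, and 77.2% of them were G or C with 34 CpG dinucleotides. In Nr0b1 241 bases were inside the site, in a window with 57.2% GC and 11 CpG. That window holds a TATAAA match, as does that of Gsc outside its site. In Fgf4 the site took 121 inner bases of a window with 71.2% GC and 21 CpG. In Gsc 128 bases were inside, with 22 CpG in the window, and in Ddx4 191 bases, with 31 CpG. GGGCGG, a box bound by SP and KLF factors, matched in the windows of Macir, Fgf4, Gsc and Ddx4 and not in that of Nr0b1 (either strand).

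The 50K-only sites were narrow. What the limits of an interval stand for is not given in the sources used here, so widths are those of the files. Their median width was 115 bp (quartiles 86 and 174 bp, widest 1412 bp), against 230 bp for shared sites (quartiles 132 and 419 bp, widest 5729 bp). Width rose with the number of other lists that overlapped a site, from a median of 140 bp for 1 list to 502 bp for all 7. Of the list's intervals of 100 to under 150 bp 37.7% were 50K-only, of those of 300 to under 500 bp 10.5%, and of 513 intervals of 1000 bp or more 2 were. Together the 50K-only sites covered 2.42 Mb, against 12.6 Mb for shared sites. Around the width threshold the share found in no other list was similar: 466 of 715 intervals of 50 to 54 bp (65.2%) were found in no other list, and 475 of 701 intervals of 45 to 49 bp (67.8%), which lie just outside. Of these, 17.4% and 22.5% lay within 1000 bp of the start of a gene.

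The rule is sensitive to the very short intervals in these files. The shortest interval in each list is 9 bp, and 9 bp intervals make up 24.4% to 59.2% of a list. When only intervals of at least 50 bp in the other lists could remove a site, 31611 sites were left, so 15040 shared sites met another list only through shorter intervals. With no minimum width, 47976 of the 95457 intervals in the 50000-cell list had no overlap elsewhere.

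Applied to each of the other lists, the same rule left almost nothing. The low-input list from 20000 cells of experiment 2 had 330 such intervals among its 25466 of at least 50 bp, and the other 6 lists had 0 to 19 each. Of those 330, 27 (8.18%, 95% Wilson interval 5.68% to 11.6%) lay within 1000 bp of the start of a gene. Their median width was 99 bp. For the 50K-only sites the share was 15.2% and the median width 115 bp. A narrow width and a low share near starts were thus not particular to the 50000-cell list. The other 6 lists had too few such intervals for this comparison. The experiment 2 list from 20000 cells also overlapped the largest share of the 50000-cell list, 60.9% of its intervals of at least 50 bp, and the Omni-ATAC list from 5000 cells the smallest, 13.7%. Of 10061 sites shared with exactly 1 list, 5403 were shared with the low-input list from 20000 cells of experiment 2 and 2704 with the Omni-ATAC list from 10000 cells. Without that low-input list there would be 21974 50K-only sites, and without any other single list between 16689 and 19275. None of the 16571 sites lay in the deposited unified list of 18310 regions, and neither did any of the 10061 sites shared with 1 list, whereas 96.4% of sites shared with all 7 did. How that list was made is not given in the sources used here, so its construction may fix these counts.

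Most 50K-only sites lay far from genes' starts. The nearest transcription start site (TSS), taken as the 5′ end of a gene in the count table, was a median of 25.3 kb away (quartiles 6.24 and 77.3 kb). For shared sites the median was 11.1 kb. Of the 24467 genes matched to the RefSeq gene table, 58.5% had the same TSS there, and intervals at other starts of a gene were not counted for it. Within 1000 bp of a TSS lay 2518 sites, 15.2% (95% Wilson interval 14.7% to 15.7%), against 30.7% of shared sites (30.3% to 31.2%). A further 6346 sites (38.3%) were farther away but inside a gene's body, and 7707 (46.5%) lay outside genes, against 31.3% and 37.9% of shared sites. Of the 50K-only sites 19.9% were more than 100 kb from any TSS, against 11.3% of shared sites. Intervals here cover counting error within 1 library only, and no test between libraries was possible.

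The share near a TSS rose step by step with the number of lists. It was 15.2% for 50K-only sites, 17.8% for sites shared with 1 list, 30.3% with 4 and 59.1% with all 7. The 95% Wilson intervals of neighbours in this order did not overlap.

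**Figure D1:**
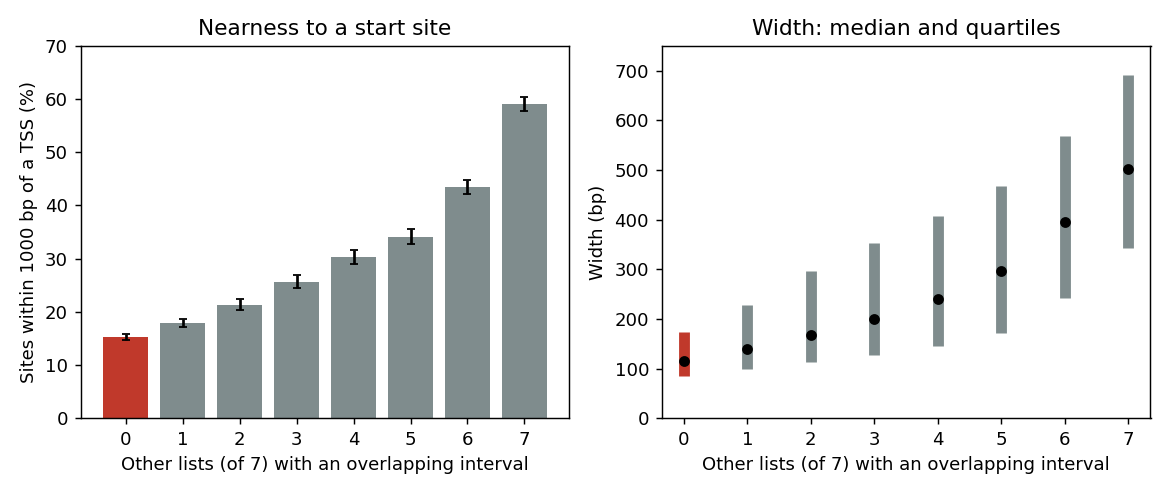
Intervals of at least 50 bp in the Omni-ATAC list from 50000 cells, grouped by how many of the other 7 lists overlap them (0 in red are the 50K-only sites). Bars on the left are the percent within 1000 bp of a TSS with 95% Wilson intervals, from 15.2% to 59.1%; points on the right are median widths in bp with quartile bars, from 115 to 502 bp.

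Width and nearness to a TSS moved together, so the comparison was repeated within bins of width. Among intervals of 50 to 99 bp, 12.2% of 6337 50K-only sites (11.4% to 13.0%) and 13.5% of 4907 shared sites (12.6% to 14.5%) were near a TSS, and the Wilson intervals overlapped. Between 100 and under 200 bp the shares were 13.2% and 15.1%, and between 200 and under 300 bp 22.0% and 26.1%. From 300 to under 500 bp they were 28.6% of 1061 and 39.2% of 9015, and from 500 bp up 47.0% of 168 and 63.9% of 7471. The difference of 30.7% against 15.2% over all widths was thus much smaller within the narrow widths that make up most 50K-only sites, and it remained in the wider ones. Widths within a bin may still differ. The bin from 500 bp up is open, with 50K-only sites up to 1412 bp and shared sites up to 5729 bp. Median distances at 50 to 99 bp still differed, at 27.0 kb for 50K-only and 18.1 kb for shared sites.

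**Figure D2:**
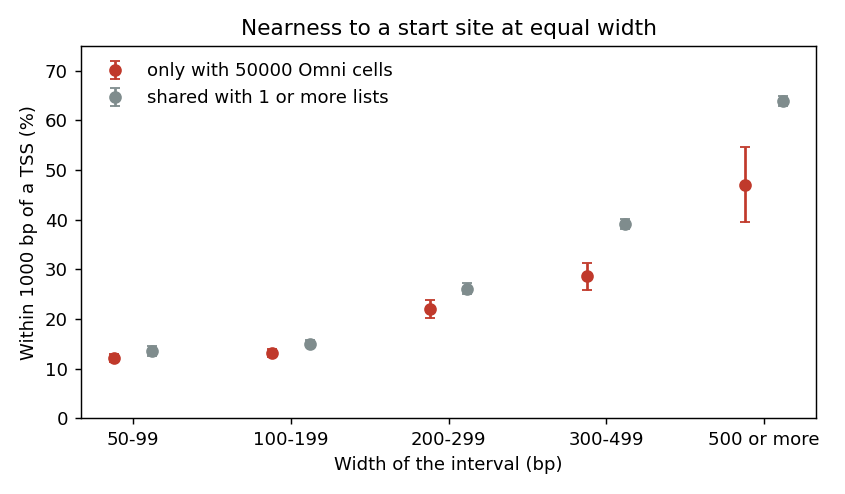
Percent of intervals within 1000 bp of a TSS by interval width, for 50K-only sites (red) and shared sites (grey) of the 50000-cell list, with 95% Wilson intervals. The 2 groups overlap at 50 to 99 bp (12.2% and 13.5%) and are apart in each wider bin (28.6% and 39.2% from 300 to under 500 bp).

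Near starts, the sites often had an interval of another list close by and mostly did not cover the start itself. A TSS was covered by 652 of the 2518 sites near one (25.9%). Over all 50K-only sites that is 3.93%, against 21.5% of all shared sites and 51.8% of those shared with all 7 lists, groups that also have more sites near a TSS. Of the 2518 sites near a TSS, 39.95% had their middle upstream of it, against 52.4% of shared sites near a TSS. An interval of another list lay within 1000 bp of 56.5% of the 2518, without touching them, and within 1000 bp of 16.3% of the 14053 sites farther from a TSS. Smc1a, a cohesin subunit gene, is an example: its 166 bp site (chrX:152016879-152017044) lay 451 bp inside the gene and 36 bp from an interval of another list. Pds5b, a cohesin regulator, had a 171 bp site (chr5:150674272-150674442) 2 bp from another list's interval. Over all 50K-only sites the median gap to an interval of another list was 8.75 kb, and 121 sites were within 10 bp of one. Leaving out every site within 250 bp of another list's interval kept 15148 sites.

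The median gap between consecutive 50K-only sites was 72.8 kb, and the sites had 9335 different genes as their nearest TSS, 22 of which were nearest to 10 or more sites. The genes with the most sites were Cdh20, a cadherin, and E130006D01Rik with 13 each, and AU023762, Tle4 and Trpc7 with 12 each. Tle4, a co-repressor of the Groucho family, was expressed at 34.8 CPM ± 2.88 (SD, n = 5 libraries). Cdh20, Trpc7, a cation channel, E130006D01Rik and AU023762 averaged at most 0.283 CPM.

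Chromosomes differed in the share of the list that was 50K-only. It was lowest on chromosome 8, at 21.1% of 2983 intervals (95% Wilson interval 19.7% to 22.6%), and highest on chromosome X, at 36.8% of 1231 (34.2% to 39.5%). The remaining autosomes lay between 25.5% and 32.6%. The chromosome 8 value moved with the experiment 2 lists, a comparison added after the values were seen. Without those 3 lists 43.5% of chromosome 8 intervals were found only with 50000 Omni cells, against 43.7% of all intervals, and chromosome 8 was no longer lowest (chromosome 17 had 39.2%). Chromosome X stayed highest at 51.3% in that setting. Without the 2 lists of experiment 1 the shares were 22.1% on chromosome 8, 38.0% on chromosome X and 30.5% overall.

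**Figure D3:**
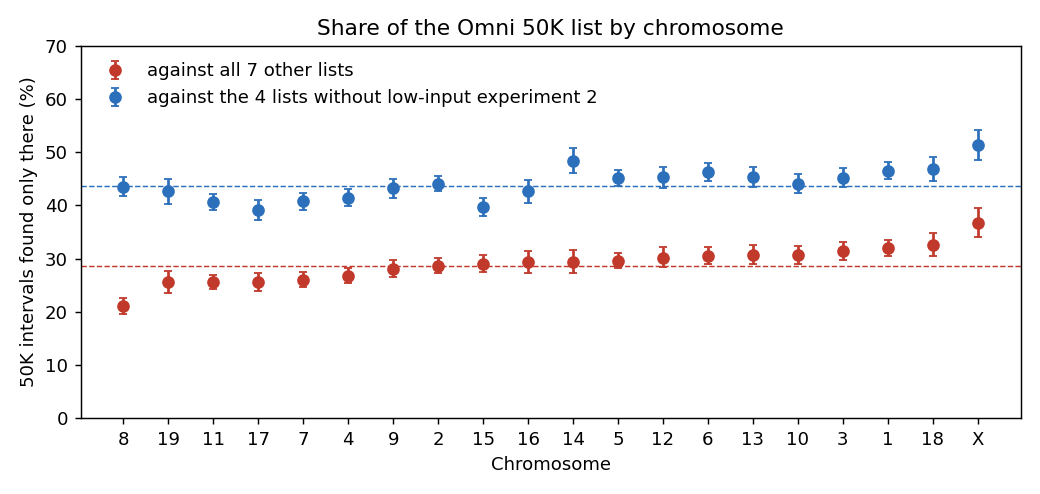
Percent of the 50000-cell intervals of at least 50 bp that overlap no other list, by chromosome, with 95% Wilson intervals, against all 7 other lists (red) and against the 4 that remain without the low-input lists of experiment 2 (blue). Dashed lines are the values over all chromosomes, 28.6% and 43.7%; chromosome 8 is lowest in red (21.1%) and on the line in blue (43.5%), and chromosome X is highest in both.

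The promoters these sites covered were GC-rich but less so in CpG than those of shared sites. Of 32851 RefSeq promoter windows of 300 bases (250 before a start and 50 after it), 1242 overlapped a 50K-only site and no shared site. Their median GC content was 62.0%, close to 62.3% in the 11769 windows over shared sites, and above 47.3% in the 18568 windows without any interval. Their median number of CpG dinucleotides was 18, against 22 and 3. CpG-rich windows, taken as at least 55% GC with an observed to expected CpG ratio of at least 0.6, made up 53.3% of the windows over 50K-only sites (95% Wilson interval 50.5% to 56.1%). They made up 68.2% of windows over shared sites, 75.9% of those shared with all 7 lists and 3.98% of those with no interval. The table has windows for 75.05% of the genes with a 50K-only site near the TSS, against 74.4% of all genes. GC content was not compared over genes, and only the windows themselves are described.

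Short factor motifs were counted in the same windows on both strands. GGGCGG was in 62.6% of windows over 50K-only sites, 69.9% over shared sites, 75.1% of those shared with all 7 lists and 35.7% of all windows. CCAAT, bound by NF-Y, was in 26.9%, 40.5%, 54.6% and 37.4%. CCGGAAG, bound by ETS factors, was in 8.37%, 19.1%, 20.3% and 8.86%. TATAAA was in 5.80%, 5.47%, 4.16% and 13.6%. The octamer ATTTGCAT, read by POU factors such as the product of Pou5f1, was in 1.37%, 1.64%, 1.75% and 1.74%. GGGCGG was thus frequent at 50K-only promoters, while CCAAT and CCGGAAG were at or below their share of all windows. No motif searched contains another, and a match says only that the letters are there. Of 1005 miRNA hairpins 3 overlapped a 50K-only site, against 41 that overlapped a shared site.

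Genes with a 50K-only site near the TSS were expressed below genes with other intervals there and above genes with none. There were 2529 such genes, with a median of 2.06 CPM over the means of 5 libraries, and library medians from 1.67 to 2.21 CPM. The median over all 24470 genes was 0.668 CPM. For 1834 of the 2529 genes another interval of some list and any width also lay within 1000 bp of the TSS, and their median was 3.61 CPM. The 695 genes whose start had a 50K-only site and nothing else had a median of 0.449 CPM, with library medians from 0.343 to 0.602 CPM. For 12554 genes with other intervals only it was 6.76 CPM, and for 9387 genes with no interval 0.0227 CPM, which is below the level of 3 counts. The order of these 4 classes was the same in each of the 5 libraries, and their ranges did not overlap.

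A mean of 1 CPM or more was reached by 40.6% of the 695 genes (95% Wilson interval 37.0% to 44.3%), 63.5% of the 1834, 72.7% of the 12554 and 9.99% of the 9387. No count in any library was found for 10.2% of the 695 and 42.0% of the 9387. Protein-coding genes, by the RefSeq biotype, were 87.3% of the 695 and 73.0% of the 9387, and long non-coding RNA genes 8.06% and 12.7%. When genes were sorted by the site near their TSS that the most lists shared, the median rose from 0.550 CPM for 1304 genes with 50K-only sites alone among sites of at least 50 bp to 1.48 CPM with 1 other list and 14.4 CPM with all 7.

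**Figure D4:**
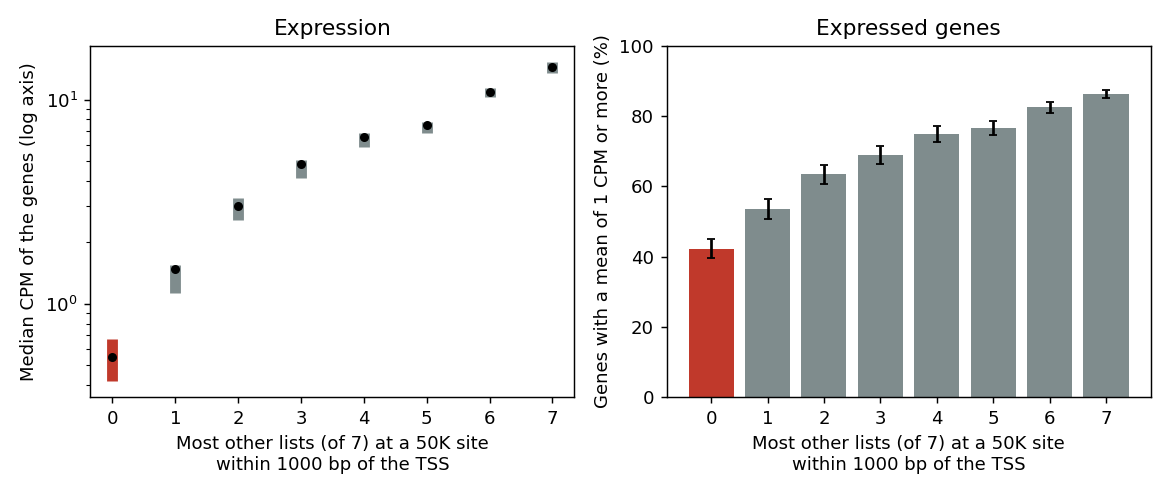
Genes sorted by the largest number of other lists overlapping any 50000-cell site within 1000 bp of their TSS (0 in red: 50K-only sites alone). Left, median CPM (log axis), points for the mean over 5 mRNA libraries and bars for the range of library medians, from 0.550 to 14.4; right, percent of genes that average 1 CPM or more with 95% Wilson intervals, from 42.3% to 86.3%.

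Farther from starts the expression of the nearest gene differed less. The 4346 genes nearest to a 50K-only site inside a gene body had a median of 1.295 CPM, against 2.15 CPM for the 7205 nearest to such shared sites. Outside genes the medians were 0.596 CPM for 4868 genes and 1.10 CPM for 7848. Many genes are in both sets, and the nearest gene need not be the one a distal site acts on.

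A small group of strongly expressed genes had no other interval at the start used here. Of the 695 genes 17 averaged 100 CPM or more (2.45%), against 5.66% of all genes and 9.58% of the 12554 with other intervals only. The highest were Cox6c, a subunit of cytochrome c oxidase, with 2463 to 3936 CPM over the libraries, and the ribosomal protein gene Rps15, with 2887 to 3284 CPM. Their sites covered the TSS and were 160 bp (chr15:35938119-35938278) and 219 bp wide (chr10:80292270-80292488). Fgf4, the growth factor that drives embryonic stem cells toward differentiation, had 137.0 and 167.6 CPM in experiment 1 (10000 and 20000 cells) and 142.7, 137.6 and 145.4 CPM in experiment 2 (5000, 10000 and 20000 cells). Its 121 bp site (chr7:144861224-144861344) ended 42 bp before the TSS, and the nearest interval of another list was 2978 bp away. Mapk3, which encodes the kinase ERK1, averaged 141.5 CPM in the same class. Ribosomal protein genes and Cox6c have near-identical copies elsewhere in the genome, and how reads matching several places were treated is not given in the sources used here, so their counts are uncertain.

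Among the most abundant genes with a site near the TSS were also Pabpc1, the poly(A)-binding protein, at 3409 CPM, Atp5g3, an ATP synthase subunit, at 2576 CPM, and Rpl38 at 2549 CPM. In these the site stood beside other intervals. The Pabpc1 site (145 bp, chr15:36607894-36608038) lay 935 bp inside the gene.

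The widest sites show the other end of the range. The widest near a TSS covered the start of Macir, a regulator of macrophage metabolism (1412 bp, chr1:97660878-97662289), and 26.5 kb separated it from any interval of another list. Macir had 4.74 and 2.81 CPM in experiment 1 and 2.39, 3.93 and 1.81 CPM in experiment 2. Next came Rhoc, a small GTPase (964 bp, chr3:104788620-104789583), at 21.3 CPM, and Dmrt3, a transcription factor with a DM domain (912 bp, chr19:25610107-25611018), at 1.43 CPM. Inside genes the widest lay in Pgr, the progesterone receptor (1050 bp, chr9:8901065-8902114, 1232 bp after the TSS), Furin, a proprotein convertase (816 bp, chr7:80402249-80403064), and Enpp6, a phosphodiesterase (794 bp, chr8:47058562-47059355). Their genes averaged 0.404, 0.954 and 0.0227 CPM, the last below the level of 3 counts. The Pgr mean rests on the library from 10000 cells of experiment 2 (1.48 CPM), with 0 to 0.392 CPM in the other 4. The Furin site lies 2372 bp from the TSS used here but covers all 250 bases before another RefSeq start of that gene. Outside genes the widest were 99.7 kb upstream of Hey1, a repressor in the Notch pathway (801 bp, chr3:8766693-8767493), 8.09 kb beyond the TSS of Ddit4, an inhibitor of mTOR signalling (785 bp, chr10:59942899-59943683), and 17.9 kb upstream of the zinc finger gene Zfp981 (733 bp, chr4:146483418-146484150).

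The genes of 17 lists chosen for stem cells were then looked up, 321 genes in all. A 50K-only site lay within 1000 bp of the TSS of 72 of them (22.4%), against 10.3% of all 24470 genes. In 15 of the 72 no other interval lay within 1000 bp of the TSS, which is what near means for the genes that follow, and 44 of the 72 averaged 1 CPM or more. Over all genes 695 of the 2529 with a site had no other interval near, and 51.4% of all genes had a shared site of the 50000-cell list near the TSS. The listed genes are not a sample of all genes, so the shares are descriptions.

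Core and naive pluripotency genes had such a site in 5 of 20 cases, and a shared site of the same list in 14. The 5 were Nr0b1, an orphan nuclear receptor, Fgf4, the naive factor Tfcp2l1, Tdgf1, a Nodal co-receptor, and Dppa5a, an RNA-binding stem cell marker. Nr0b1 had 164.8 and 140.9 CPM in experiment 1 and 165.1, 173.1 and 202.5 CPM in experiment 2. Its 267 bp site (chrX:86191534-86191800) covered the TSS and lay 133 bp from another list's interval. Tdgf1 had 356.2 to 430.8 CPM and Dppa5a 1469 to 1673 CPM, with sites of 75 and 70 bp.

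Formative and primed genes had one in 7 of 17 cases, and 2 of these, Dnmt3a and Lef1, had no other interval within 1000 bp of the TSS used here. Other starts of these genes were not searched. Dnmt3a, a de novo DNA methyltransferase, had 31.7 to 39.9 CPM, and its 341 bp site (chr12:3807937-3808277) lay 957 bp inside the gene from the TSS used and 376 bp from an interval of another list. Etv4, a target of FGF signalling, had 64.7 to 103.2 CPM.

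Genes of early lineages were looked up next. Primitive endoderm genes had a site in 3 of 16 cases, mesendoderm genes in 4 of 16, early neural genes in 4 of 20 and Hox genes in 8 of 39, while trophoblast genes had none among 15. The Gata4 site, at the start of a primitive endoderm master regulator, was 167 bp wide (chr14:63245303-63245469) and 10.6 kb from any interval of another list. Gata4 had 1.02 and 0.134 CPM in experiment 1 and 0.955, 0.129 and 0.196 CPM in experiment 2. Gsc, an organizer gene, averaged 0.479 CPM, with a 128 bp site (chr12:104473241-104473368). Mesp1 and Mesp2, mesoderm regulators, averaged 1.24 and 5.00 CPM. The Hox genes Hoxa5, Hoxb1 and Hoxc5 had a 50K-only site and no other interval, with means of 0.0196, 0.205 and 0.123 CPM. Lamb1, a laminin subunit, and Tubb3, a neuronal tubulin, were expressed well above the level of 3 counts, at 34.7 and 19.4 CPM.

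Germline genes had a site in 6 of 20 cases, and in 5 of the 6 no other interval was near. The 5 were Ddx4, an RNA helicase of germ cells, Sycp1, of the synaptonemal complex, Hormad1, a meiotic chromosome axis protein, Slc25a31, an ADP/ATP carrier, and Dpep3, a dipeptidase. Ddx4 had 5.17 and 3.75 CPM in experiment 1 and 3.997, 2.84 and 2.06 CPM in experiment 2, with a 379 bp site over its TSS (chr13:112652123-112652501). The Sycp1 site was 356 bp wide (chr3:102935594-102935949) and 59.7 kb from another list's interval.

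Housekeeping and chromatin genes followed. Of 25 ribosomal protein genes 0 had a 50K-only site near the TSS and 24 had a shared one. That list is partial: Rps15 and Rpl38, named above, are not in it, nor are Rpl37a (1916 to 2245 CPM) and Rpl39l (240.9 and 232.7 CPM in experiment 1, then 88.9, 93.96 and 79.6 CPM in experiment 2), which had a 50K-only site and no other interval near and were named after their values were seen. Of 14 insulator and cohesin genes 6 had a 50K-only site (Stag1, Pds5b, Smc1a, Yy1, Ctcf and Smc3), each with another interval also near, and 14 had a shared one. Polycomb genes had one in 7 of 25 cases. Kdm2b, which brings a Polycomb complex to CpG islands, had a 340 bp site over its TSS (chr5:122989074-122989413) and no other interval near, at 7.04 to 17.7 CPM. Signalling genes had sites in 11 of 31 cases for Wnt, 10 of 30 for FGF and ERK, and 5 of 30 for BMP, Nodal and TGF-beta. Ctnnb1, which encodes beta-catenin, had 172.2 to 191.6 CPM and a 297 bp site over its TSS (chr9:120933229-120933525), 13.7 kb from any interval of another list.

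Expression of these genes between the experiments was compared to see how they vary across the low-input cultures. The test used the 4 mRNA libraries from 10000 and 20000 cells, 2 per experiment, and edgeR's quasi-likelihood test with Benjamini-Hochberg adjustment over all genes. Among all 12523 genes tested 12.5% had an adjusted p under 0.05, 5.75% higher and 6.76% lower in experiment 2. Of 1607 tested genes with a 50K-only site near the TSS 210 were called (13.1%, Wilson interval 11.5% to 14.8%), 97 higher and 113 lower. That share is near the background. The median log2 fold change was -0.03 for these genes and 0.00 for all genes tested. Among the 330 tested genes with no other interval 12 were higher and 31 lower. Whether those shares differ from the background was not tested. Of the 2529 genes 922 had too few counts to be tested, so the tested genes are the better expressed ones. Without the library from 10000 cells of experiment 2 or that from 20000 cells of experiment 2 the count fell to 105 in either case, and over all genes to 803 and 869. Without the library from 10000 cells of experiment 1 it was 142, and 1018 over all genes. Libraries of an experiment share a day, so the p-values carry no replication of days.

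Of the 46 listed genes with a site that could be tested 5 were higher and 4 lower in experiment 2, against 5.75% and 6.76% of all genes tested, with a median log2 fold change of 0.02. These are few genes, and whether their share differs from the background was not tested. Smad1, which carries BMP signals to the nucleus, had 1.38 and 2.94 CPM in experiment 1 and 10.8, 8.45 and 9.99 CPM in experiment 2, and the experiments did not overlap (2.08 ± 0.37 SE as log2 fold change, edgeR adjusted p = 0.000439). Without the library from 20000 cells of experiment 1 its log2 fold change was 2.75, and without that from 10000 cells of experiment 1 it was 1.65. Its 180 bp site (chr8:79398761-79398940) lay 528 bp inside the gene. Sfrp1, a Wnt antagonist, rose by 0.95 ± 0.16 on the log2 scale (edgeR adjusted p = 0.000157). Fgfr1, an FGF receptor, rose by 0.67 ± 0.19 (edgeR adjusted p = 0.0174), Ctcf, the insulator protein, by 0.57 ± 0.17 (edgeR adjusted p = 0.0284) and Fzd2, a Wnt receptor, by 1.08 ± 0.35 (edgeR adjusted p = 0.0456). These 3 calls did not hold in every fit with 1 library left out, while the direction did. That of Ctcf was lost without the library from 10000 cells of experiment 1 or either library from 20000 cells (edgeR adjusted p from 0.0539 to 0.251), with log2 fold changes of 0.44 to 0.70 over all alternatives. Those of Fgfr1 and Fzd2 were lost without either library from 10000 cells or that from 20000 cells of experiment 2 (edgeR adjusted p from 0.0665 to 0.267 for Fgfr1 and from 0.11 to 0.322 for Fzd2), with log2 fold changes of 0.43 to 0.98 and 0.86 to 1.35 over all alternatives. DESeq2 did not call Ctcf (adjusted p = 0.0617) or Fzd2 (adjusted p = 0.149). Smad1, Sfrp1, Fgfr1 and Ctcf lie on chromosome 8, the chromosome with the lowest share of 50K-only sites, and the part of that chromosome in these rises was not tested. Without genes of chromosome 8, a setting added after the values were seen, 182 of the 210 calls among genes with a site remained. Over all genes 1348 of the 1567 calls remained. The share of tested genes on chromosome 8 is not given here, so these counts are descriptions.

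Among the genes that fell, Sycp1 had 5.39 and 5.55 CPM in experiment 1 and 2.45, 1.48 and 1.37 CPM in experiment 2 (-1.94 ± 0.45 SE as log2 fold change, edgeR adjusted p = 0.00533). Without the library from 20000 cells of experiment 2 its edgeR adjusted p was 0.053. Slc25a31 fell with it, at -2.53 ± 0.80 (edgeR adjusted p = 0.037), and lost its call without any 1 of the 4 libraries (edgeR adjusted p from 0.0557 to 0.277). Its log2 fold change was -1.83 without the library from 20000 cells of experiment 2 and -3.66 without that from 10000 cells, and DESeq2 did not call it (adjusted p = 0.0684). Mesp2 fell by 1.37 ± 0.33, and by 1.29 without the library from 10000 cells of experiment 2, where its edgeR adjusted p was 0.0704. Thy1, a surface protein of fibroblasts and other cells, had 29.2 and 33.9 CPM in experiment 1 and 9.78, 6.77 and 7.05 CPM in experiment 2 (-2.19 ± 0.21 SE as log2 fold change, edgeR adjusted p = 6.75e-08), with a 256 bp site over its TSS. It was the only one of the 8 fibroblast markers at 1 CPM or more.

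Over all genes with a site near the TSS, the largest rise among those averaging at least 1 CPM was in Trh, which encodes thyrotropin-releasing hormone. Trh had 8.45 and 6.29 CPM in experiment 1 and 50.8, 46.1 and 56.8 CPM in experiment 2 (2.81 ± 0.20 SE as log2 fold change, edgeR adjusted p = 4.08e-10). Its 188 bp site (chr6:92244670-92244857) lay 20 bp upstream of the TSS, no other interval lay within 1000 bp, and the nearest of another list was 1516 bp away. The 3 ATAC lists from the cells of experiment 2 thus have no interval within 1000 bp of this start. The site was chosen for its absence from those lists, and without depth a missing interval does not show a closed start. Myb, a transcription factor of progenitor cells, was next, with 0.437 and 0.535 CPM in experiment 1 and 0.418, 3.10 and 2.55 CPM in experiment 2. The library from 5000 cells, outside the fit, overlapped experiment 1, and the call was lost without either experiment 2 library of the fit (edgeR adjusted p = 0.21 and 0.137), with log2 fold changes of 2.37 and 2.66 against 2.52 with all 4. Smad1 was the third.

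The largest falls were in Mlana, Usp26 and Gpx6, each with a 50K-only site and no other interval near the TSS. Mlana, a melanosome protein, had 8.67 and 11.9 CPM in experiment 1 and 1.55, 0.0645 and 0.587 CPM in experiment 2 (-4.84 ± 0.52 SE as log2 fold change, edgeR adjusted p = 5.14e-07). Its log2 fold change was -4.11 without the library from 10000 cells of experiment 2 and -7.13 without that from 20000 cells. Usp26, an X-linked deubiquitinase of the testis, had 3.93 and 4.35 CPM, then 0.597, 0.387 and 0.245 CPM (-3.71 ± 0.67, edgeR adjusted p = 0.000454). Its 255 bp site (chrX:51800797-51801051) was 115.9 kb from any interval of another list. Gpx6, a glutathione peroxidase, had 6.19 and 8.36 CPM, then 0.537, 1.03 and 0.587 CPM (-3.18 ± 0.47, edgeR adjusted p = 4.33e-05). In these 3 genes the libraries of experiment 2, including the one outside the fit, lay below both libraries of experiment 1. The distal gene Ddit4 also fell (-0.98 ± 0.19, edgeR adjusted p = 0.00128), as did Cox6c (-0.50 ± 0.11, edgeR adjusted p = 0.00253) and Pabpc1 (-0.51 ± 0.11, edgeR adjusted p = 0.00224). The Pabpc1 call was lost without the library from 10000 cells of experiment 1 (edgeR adjusted p = 0.0551).

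**Figure D5:**
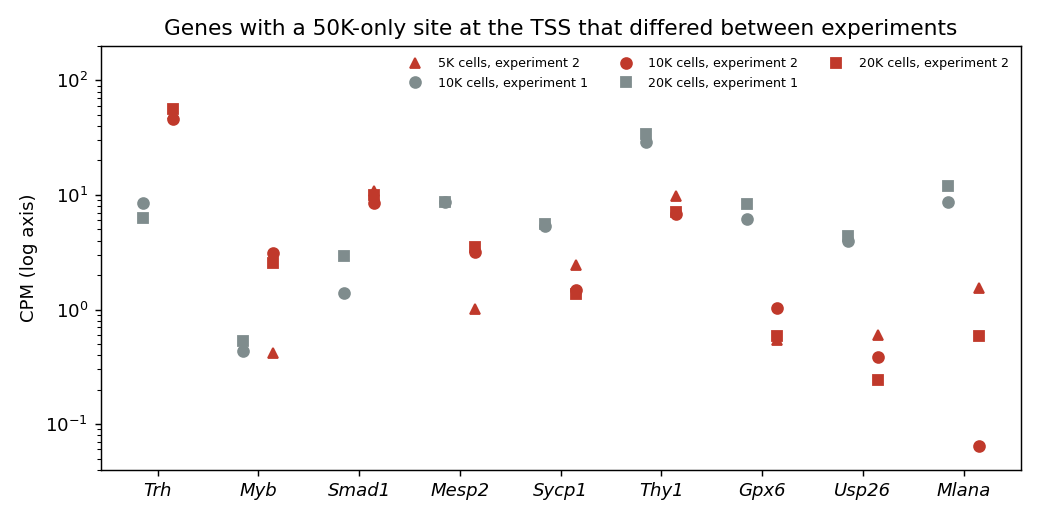
CPM (log axis) in the 5 low-input mRNA libraries of 9 genes with a 50K-only site within 1000 bp of the TSS that were called between experiments by edgeR; grey is experiment 1, red experiment 2, and shapes give the cell number. The experiments do not overlap except in Myb, where the library from 5000 cells (0.418 CPM) lies with experiment 1.

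Cell number was compared in the same 4 libraries. Between 20000 and 10000 cells 0 of 12523 genes had an edgeR adjusted p under 0.05 (0% of all genes tested), and so 0 of the 1607 with a 50K-only site. An unadjusted p under 0.05 was found for 101 genes, 11 of them with a site, and DESeq2 called 0. The main fit did not take the experiment into account, so differences between the experiments added to its spread. Its 0 calls therefore do not show that cell number had no effect. With the experiment as a replicate block 4 genes were called, 0 of them with a site near the TSS.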

How the data were processed

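The authors deposited 8 peak lists in mm10 coordinates, 1 per ATAC library, with no score or height, a unified list, and a gene-by-library count table of unnormalized read counts for 5 mRNA libraries, per the file headers. The submitters' processing notes name Bowtie2 2.1.0, MACS2 2.1.1, SAMtools 1.3.1, Picard, bedtools 2.24.0, cutadapt, STAR 2.5 and Subread 1.5.0-p1 with featureCounts; their settings are not given in the sources used here.

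From these files, intervals were compared by overlap of at least 1 bp. CPM is a gene's count divided by the library's total count. The mRNA libraries were compared with edgeR 4.0.16 in R 4.3.3 (TMM, filterByExpr, quasi-likelihood test, Benjamini-Hochberg adjustment, threshold 0.05), and with DESeq2 1.42.0 as an alternative. The edgeR procedure was tested on simulated data. Other steps used Python 3.11.15. Nothing states that libraries of a group came from separate cultures, so p-values measure the spread between libraries, which may be technical. The experiments pair the libraries of different cell number, since each experiment was done on its own day; between the experiments, differences at 10000 and 20000 cells correlated with r = 0.562 over 11575 genes.

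Named genes were the 3 widest sites of each location, up to 3 genes by site width in each gene list, the 5 genes with the highest CPM, the 5 nearest to the most sites, and the 3 largest rises and falls among genes averaging at least 1 CPM. Chromosome 18 sites were not named. Other named genes were chosen after their values were seen: all called genes of the lists, Hoxa5, Hoxb1, Hoxc5, Lef1, Slc25a31, Hormad1, Yy1, Smc3, Rpl37a, Rpl39l and Mapk3. The sites and lists were chosen with earlier results of these data known. Wilson intervals cover counting error only. Alternatives varied the width, overlap, lists, TSS definition, normalization, filter, block and libraries. Some items are not reported here.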

Additional observations from a re-analysis of the deposited data

How the results depend on the processing

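The number of 50K-only sites depended mainly on short intervals. It was 47976 with no minimum width, 10234 with a minimum of 100 bp and 31611 when only other intervals of at least 50 bp removed a site. It was 16994 when a larger overlap, 0.5 of the shorter interval, was needed, and 16689 to 21974 when 1 other list was left out.

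The share within 1000 bp of a TSS was 17.1% with a minimum width of 100 bp and 13.9% with TSS from the RefSeq gene table. It was 14.6% over every start of the RefSeq promoter table, an alternative added after seeing the data. At 500 bp it was 11.2% and at 2500 bp 18.8%, and leaving out 1 list gave 15.2% to 16.1%. The median CPM of genes with a site was 1.40 when the nearest TSS within 10000 bp was taken, 0.476 without genes that have another list's interval near, and 1.99 to 2.11 when 1 mRNA library was left out. The chromosome settings, 43.5% on chromosome 8 and 51.3% on chromosome X without the experiment 2 lists, were also added after seeing the data, and there chromosome 8 was no longer the lowest.

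Between experiments, leaving out 1 library gave 803 to 1817 calls over all genes and 105 to 252 among genes with a site. DESeq2 gave 1127 and 141, and a block for cell number 1765 and 227, each within 1.5 times the reported counts. DESeq2 ended the calls of Ctcf, Fzd2 and Slc25a31. Between 20000 and 10000 cells, the fit without a filter on low counts called 2 genes and the fit with the experiment as a replicate block 4, and 0 of either had a site. With that block, as without it, no gene with a site was called. The 17 named genes called between experiments kept their direction in these settings; the comparisons with shared sites, the promoter windows and the gene lists were not recomputed in all of them. The cause of these shifts was not tested. The depth of the ATAC libraries is not in the lists, so no site's absence from a list can be weighed against it.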
